A study of Mus musculus with 69 samples.

Results

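The entry of a T cell into division is governed at the G1 restriction point. D-type cyclins bind CDK4 or CDK6, the resulting kinases phosphorylate RB family proteins, and E2F transcription factors are then released to drive S phase genes, with CDK2 acting on the same substrates later in G1. This step is opposed by inhibitors of the INK4 family, which bind CDK4 and CDK6 alone, and of the CIP/KIP family, which bind cyclin-CDK complexes more broadly. Common gamma chain cytokines such as IL-7 and IL-15 signal through STAT5 in T cells, and D cyclins are well known as growth factor-induced genes.

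Transcript levels of 10 genes of this switch were measured, out of 24309 genes counted in the mouse T cell tables. They were chosen by name: the D cyclins Ccnd1, Ccnd2 and Ccnd3, the kinases Cdk4, Cdk6 and Cdk2, the CIP/KIP inhibitors Cdkn1a (p21) and Cdkn1b (p27), and the INK4 inhibitors Cdkn2c (p18) and Cdkn2d (p19). All 10 were found in each of the 3 tables. The study asked whether the paralogs STAT5A and STAT5B are redundant, using germline knockout mice that retain a single STAT5 allele, so that all cells of the animal, and their development, are affected. AAB mice are Stat5a-/- Stat5b+/-, BBA mice are Stat5a+/- Stat5b-/-, and WT mice carry all 4 alleles. Animals were 8 to 16 weeks old, and cells were sorted from pooled lymph nodes and spleen.

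The CD8+ T cells formed 24 groups of 2 libraries. Naive (Tnv), central memory (Tcm) and effector (Tem) CD8+ T cells of WT, AAB and BBA mice were taken without cytokine (NC) or after 12 to 16 hours with IL-15, and Tnv and Tcm also with IL-7. Naive CD4+ T cells were taken as NC or with IL-7 in the same 3 genotypes. WT had 3 libraries in each CD4+ group, AAB had 2, and BBA had 2 as NC and 3 with IL-7. A separate set of 4 libraries came from AAB CD8+ T cells activated through the TCR and CD28, transduced with retrovirus, kept in IL-2 and sorted for GFP. In this set, 2 libraries carried S5a, a constitutively active STAT5A, and 2 carried the control vector. The labels describe cells as cultured, while the study's methods take NC cells directly ex vivo, so an effect of cytokine and an effect of culture cannot be told apart. All Tnv libraries with IL-7 were male by their Xist and Y-linked transcripts, as were 4 of 6 Tcm libraries with IL-7. In Tcm with IL-7, both WT libraries were male and replicate 1 of AAB and of BBA was female. Every CD8+ library without IL-7 was female. Genotype and sex were thus partly mixed in Tcm with IL-7. In WT Tcm, an effect of IL-7 and an effect of sex cannot be told apart.

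Gene counts ranged from 5926139 to 25612758 per CD8+ library, from 6705004 to 34118295 per CD4+ library and from 11020965 to 16516525 per transduced library. Levels are given as counts scaled to library size (CPM) by TMM over all genes of a table, and the tables were scaled separately. Fold changes come from fits that were each scaled by TMM over the genes tested, so a fold need not equal the ratio of the printed levels. For BBA over WT, the fitted log2 value was higher than the ratio of levels by 0.30 in Tnv and 0.28 in Tcm under IL-15 and by 0.23 in Tcm under IL-7, and by at most 0.12 elsewhere. On the scale of the levels the median of all genes tested thus lay at -0.30, -0.26 and -0.23 in these 3 comparisons, and near 0 on that of the fits. The targeted genes followed the labels. Stat5a lay between 0.981 and 5.13 CPM in AAB CD8+ libraries and between 32.2 and 110 CPM in WT, and Stat5b lay between 49.0 and 87.4 CPM in BBA and between 167 and 360 CPM in WT. Reads on Stat5b therefore remained in BBA cells. The CD8 lineage markers summed to at least 1533 CPM in every CD8+ library outside the transduced set, whose markers are given with its results. WT Tnv replicate 2 with IL-15 also held 335 CPM of CD4 lineage markers, against 6.83 to 18.4 CPM in the other 5 libraries of that condition. WT Tcm replicate 1 with IL-7 read 626 CPM of the STAT5 target gene Bcl2 against 1226 CPM in replicate 2, while the WT Tcm NC libraries lay at 380 and 448 CPM. Cish, another such target, read 27.3 and 34.3 CPM in these IL-7 libraries, against 10.5 and 9.64 CPM as NC. Replicate 1 also held the highest sum of 4 NK cell markers of the sorted CD8+ libraries, 712 CPM against 285 CPM in replicate 2, with Klra8 at 0 in both. Member calls that changed without either of these WT libraries are given with the results. Leaving out 1 of 2 libraries leaves no spread in that group, so the p-values of such fits rest on the spread of the other groups. Replicate 1 of WT Tcm with IL-7 is called the divergent library below, but the data do not settle which of the 2 is typical. In such bulk samples, fewer expressing cells and less RNA per cell cannot be told apart.

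Per kilobase of exon, which allows genes to be compared, Ccnd2 and Cdkn1b were the most abundant of the 10 in CD8+ T cells, each with a median of 59.9 CPM per kb over 48 libraries. Cdk4 followed at 35.2 and Ccnd3 at 26.0 CPM per kb. Cdk2 had a median of 4.22, Cdkn2d of 2.40, Cdkn2c of 1.99 and Cdk6 of 1.07 CPM per kb. Ccnd1, the D cyclin of many epithelial tissues, had a median of 0.518 and Cdkn1a of 0.462 CPM per kb. Cdk6 had the widest span of the 10 on this scale after Cdkn1a, from 0.472 to 9.88 CPM per kb.

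Differences were tested with edgeR's quasi-likelihood test over all genes that passed an expression filter, and a gene was called at more than 1.5-fold with an adjusted p under 0.05. Of the 10 genes, 6 to 8 passed the filter in each genotype comparison. Ccnd1 passed in none of them, Cdkn1a in 1 condition, Cdkn2c in 5 and Cdkn2d in 3. A gene can pass through the group in which it is high, so these counts cover tested members only. Ex vivo, no member was called in either deficiency. In the NC libraries of the 4 cell types, BBA over WT gave 0 calls in 29 member tests with edgeR and with DESeq2, with 5 at an unadjusted p under 0.05, and AAB over WT gave 0 calls in 29 by both tools, with 3 at that level. Among all genes tested, 2.75% were called for BBA in Tnv, 0.277% in Tcm, 0.206% in Tem and 1.13% in CD4+ cells without cytokine. For AAB, these shares were 0.164%, 0.0395%, 0.0197% and 0.355%.

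With cytokine, the picture changed, mostly for BBA. Calls of BBA over WT were 3 of 6 tested members in Tnv with IL-15 (9.31% of all genes), 5 of 7 in Tcm with IL-15 (23.5%), and 2 of 7 in Tem with IL-15 (1.76%). With IL-7 they were 1 of 7 in Tnv (2.69%), 2 of 7 in Tcm (3.09%) and 2 in CD4+ cells (5.5%). Of these 15 calls, 14 were lower in BBA and 1, Cdkn1b, was higher. With the scaling of the levels in the fits there were 14, all lower. The split over all genes moved with it too, from 1159 higher and 1175 lower to 694 and 2359 in Tcm with IL-15 and from 674 and 249 to 648 and 1024 in Tnv. Under IL-7 it moved from 168 and 144 to 214 and 609 in Tcm. For AAB, Cdk6 was the only member called by edgeR, and it was lower in Tcm with IL-15 (4.29% of all genes), in Tem with IL-15 (0.0196%) and in CD4+ cells with IL-7 (0.611%). No member was called for AAB by edgeR in Tnv with IL-7 (0.256%), Tnv with IL-15 (0.726%) or Tcm with IL-7 (0.0594%). Cdk6 was called in both Tnv conditions with the replicate number as a block, by DESeq2 and without a filter, and without a filter Ccnd3 and Cdk6 were called in Tcm with IL-7.

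**Figure D1:**
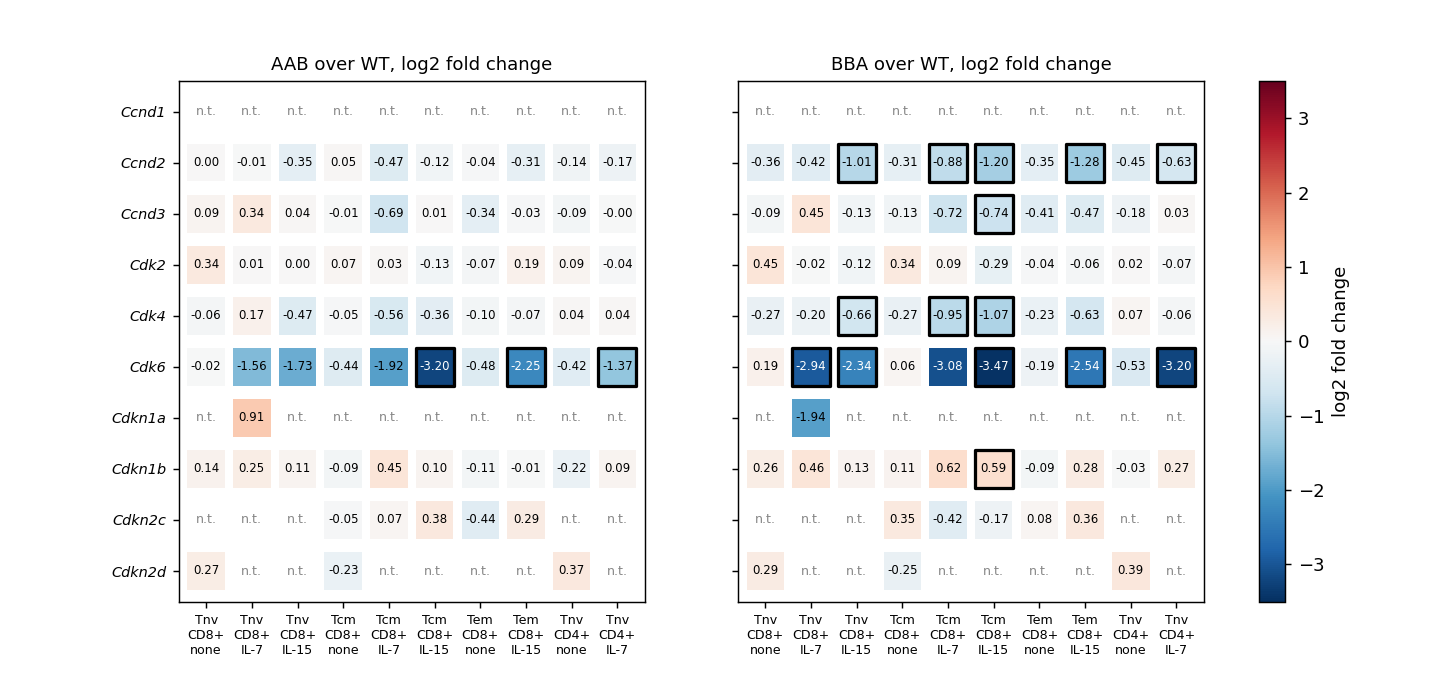
Log2 fold change of the 10 genes (rows) in AAB (left) and BBA (right) over WT, by cell type and cytokine (columns). Color and number give the fitted value, black frames mark genes called at more than 1.5-fold with an adjusted p under 0.05, and n.t. marks genes that did not pass the expression filter. Calls lie in columns with cytokine, and the strongest blue runs along the Cdk6 row, down to -3.47 in BBA Tcm with IL-15.

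Among the D cyclins, Ccnd2 carried most of the transcript. On the per kb scale it made up 54.5% to 81.0% of the summed D cyclins in CD8+ libraries, with a median of 67.1%, and Ccnd3 made up 18.1% to 42.7%, with a median of 32.3%. Ccnd1 contributed a median of 0.56%, and its highest share, 3.78%, was in BBA Tem replicate 2 with IL-15. In CD4+ cells the median shares were 69.4% for Ccnd2 and 30.2% for Ccnd3. In the transduced cells Ccnd2 and Ccnd3 were closer, at 44.7% to 53.8% and 45.8% to 54.4%.

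Ccnd1 stayed low in every library, between 12 and 75 counts in CD8+ cells. It read 4.82 and 4.65 CPM in BBA Tnv with IL-15 against 2.43 and 1.63 CPM in WT. In Tem with IL-15 it read 4.95 and 6.74 CPM in BBA, 3.62 and 2.88 CPM in AAB, and 2.17 and 2.07 CPM in WT. The groups of BBA and WT did not overlap in either condition, but the gene did not pass the filter and was not tested there. With edgeR's filterByExpr in place of that filter, it was called in Tnv with IL-15 (log2 fold change 1.31, adjusted p = 0.0436), but not without the WT library that held CD4 lineage transcripts (0.96, adjusted p = 0.158).

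Ccnd2, the main D cyclin of lymphocytes, fell in BBA cells under cytokine. In Tcm with IL-15, the condition in which WT cells had their highest level, it read 1063 and 956 CPM in WT, 866 and 902 CPM in AAB, and 367 and 356 CPM in BBA. The 3 genotypes did not overlap, and BBA libraries were far below both others. The difference from WT was -1.20 ± 0.09 on the log2 scale (SE, adjusted p = 2.02e-04), and the difference from AAB was -1.08 ± 0.09 (adjusted p = 0.00382). Both calls held when any 1 library was left out.

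In Tem with IL-15, Ccnd2 read 700 and 453 CPM in WT, 552 and 380 CPM in AAB, and 260 and 197 CPM in BBA. BBA lay below every other library, whereas AAB overlapped WT at these levels. BBA differed from WT by -1.28 ± 0.17 (adjusted p = 0.0351), but this call was lost without any 1 of the 6 libraries, with adjusted p from 0.0619 to 0.232. BBA was 1.96-fold lower than AAB (adjusted p = 0.312), which was called with the replicate block (log2 fold change -0.96, adjusted p = 0.00536).

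In Tnv with IL-15, Ccnd2 read 672 and 465 CPM in WT, 394 and 433 CPM in AAB, and 188 and 278 CPM in BBA. At these levels the groups were ordered WT, AAB and BBA with no overlap, and on the scale of the fit AAB overlapped WT. BBA was 2.01-fold lower than WT (log2 fold change -1.01 ± 0.21, adjusted p = 0.0282), a call kept without the WT library that held CD4 lineage transcripts or without BBA replicate 2, and lost without any of the other 4, with adjusted p from 0.0689 to 0.139. With IL-7, Tnv showed 639 and 564 CPM in WT, 731 and 489 CPM in AAB, and 493 and 389 CPM in BBA, and BBA was not called (-0.42).

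With IL-7 in Tcm, Ccnd2 read 838 and 720 CPM in WT, 508 and 514 CPM in AAB, and 359 and 360 CPM in BBA. The genotypes separated completely, and replicates agreed closely in both deficient groups. BBA differed by -0.88 ± 0.15 (adjusted p = 0.0355), kept without either WT library and lost without any 1 of the 4 deficient ones, with adjusted p from 0.0818 to 0.296. Both WT libraries were male and 1 BBA library was female, and in the male libraries alone, with 1 BBA library left, the value was -0.94. In CD4+ cells with IL-7, WT libraries read 560, 522 and 529 CPM, AAB 431 and 523 CPM, and BBA 329, 348 and 354 CPM. BBA was 1.54-fold lower than WT there (log2 fold change -0.63 ± 0.08, adjusted p = 0.0016), and this call held without any 1 library. All BBA libraries thus lay below all WT libraries in 6 of 6 conditions with cytokine, and also in 3 of 4 without, where no difference was called. The share of all genes that separate in this way was not counted, so these counts only describe Ccnd2.

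Ccnd3, the other D cyclin of T cells, was called in a single genotype condition. Its levels in Tcm with IL-15 were 421 and 373 CPM in WT, 361 and 396 CPM in AAB, and 187 and 202 CPM in BBA. AAB overlapped WT, and both BBA libraries lay below all others. The mean of BBA was 49.0% of that of WT at these levels. On the scale of the fit, the fall in BBA was 1.68-fold against WT (log2 fold change -0.74 ± 0.09, adjusted p = 0.00139) and 1.68-fold against AAB (adjusted p = 0.00859), and with the scaling of the levels it was -1.03 and -0.96, both called. The first held without any 1 library, and the second was lost without AAB replicate 2 (adjusted p = 0.0607). In Tcm with IL-7 the divergent WT library read 443 CPM, the other WT library 213 CPM, AAB 182 and 182 CPM, and BBA 164 and 171 CPM, with no call. Without WT replicate 2 both deficiencies were called, at -1.11 in BBA (adjusted p = 0.00112) and -1.09 in AAB (adjusted p = 0.00166), so that 1 library decides this result.

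**Figure D2:**
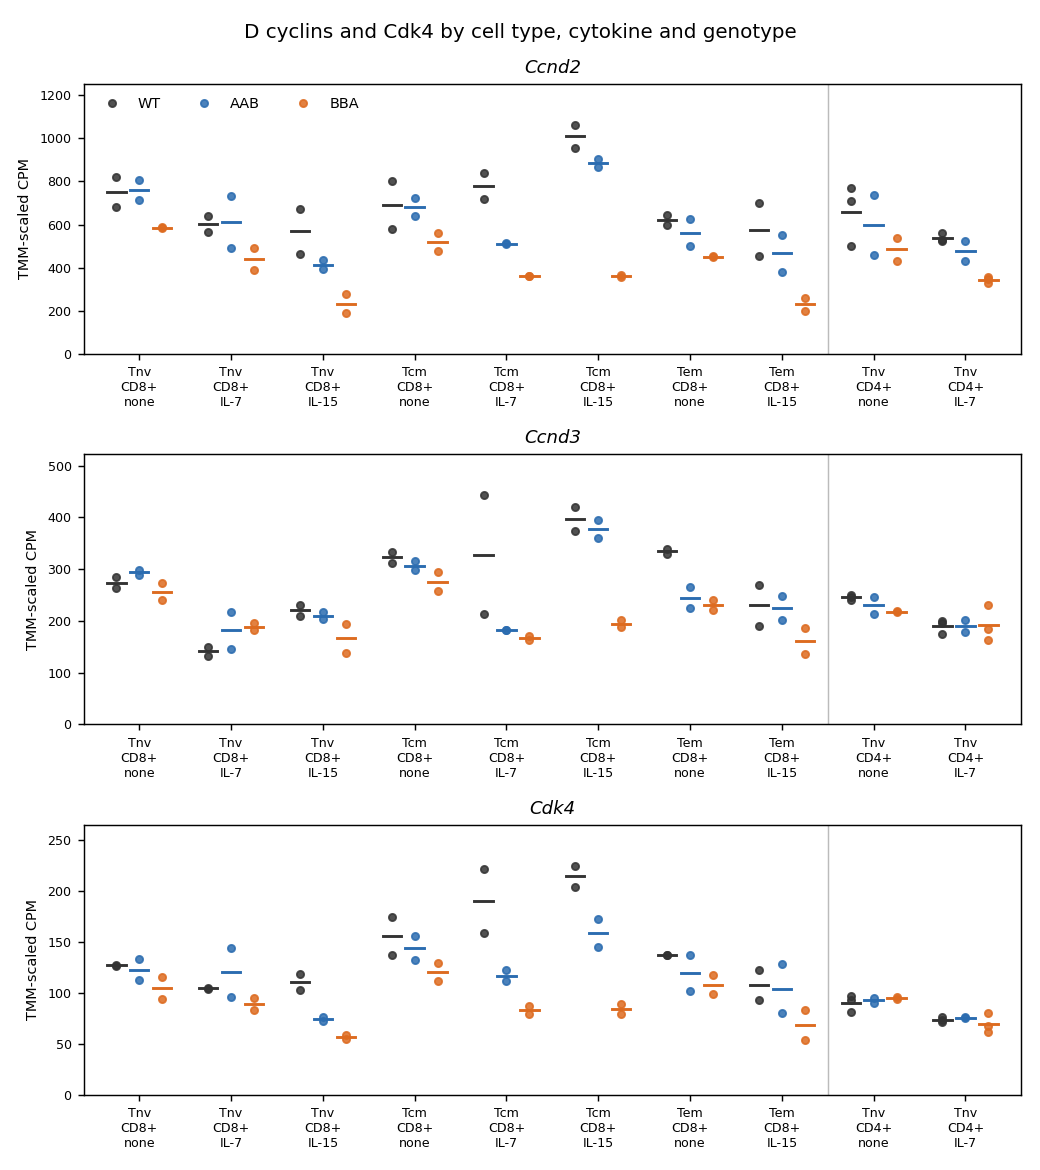
TMM-scaled CPM (vertical axes from 0) of Ccnd2, Ccnd3 and Cdk4 in each library, by cell type and cytokine, with WT in black, AAB in blue and BBA in orange. Points are libraries and bars are group means; conditions marked none are NC. The gap between BBA and WT is widest in Tcm with IL-15, where Ccnd2 reads 1063 and 956 CPM in WT and 367 and 356 CPM in BBA.

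Promoter windows of 300 bases, 250 before and 50 after the start, were available from RefSeq (GRCm38.p6) for 8 of the 10 genes, as 11 windows. Ccnd1 and Ccnd2 had none. The windows of Cdk4 and Cdk6 are shown because these kinases were called in BBA cells and their windows held CACGTG. Capitals mark this motif, an E-box bound by MYC family proteins. Ccnd3 and Cdkn1b were also called in BBA cells, and their windows held none of the motifs searched. The Cdk4 window lies at chr10:127063285-127063584 on the plus strand, and the Cdk6 window at chr5:3343643-3343942 on the plus strand.
Cdk4: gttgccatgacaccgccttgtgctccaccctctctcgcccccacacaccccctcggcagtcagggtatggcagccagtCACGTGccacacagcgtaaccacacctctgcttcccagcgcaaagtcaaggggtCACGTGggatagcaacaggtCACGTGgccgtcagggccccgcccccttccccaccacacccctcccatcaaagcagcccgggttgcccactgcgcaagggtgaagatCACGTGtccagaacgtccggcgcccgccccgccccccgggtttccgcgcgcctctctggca
Cdk6: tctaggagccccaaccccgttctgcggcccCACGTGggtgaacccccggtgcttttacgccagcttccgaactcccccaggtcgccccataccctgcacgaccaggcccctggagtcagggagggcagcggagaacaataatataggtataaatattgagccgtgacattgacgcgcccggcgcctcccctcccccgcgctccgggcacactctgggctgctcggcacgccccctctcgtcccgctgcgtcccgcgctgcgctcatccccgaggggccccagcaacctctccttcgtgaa
Searched on both strands, CACGTG occurred 4 times for Cdk4, at 172, 118, 98 and 11 bases before the start, and at 220 bases before the start for Cdk6. It occurred once for Cdkn2c. Of 32851 windows in the annotation, 7.15% held at least 1 CACGTG, and 8 windows, or 0.0244%, held 4 or more. The STAT-type motif TTCNNNGAA was in none of the 11 windows and in 8.3% of all. The E2F-type motif TTTCCCGC was in the Cdk2 window and in 1.07% of all, and TTTGGCGC was in no member window and in 0.514% of all. These are letter matches in short windows, and binding was not measured.

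Cdk4, the D cyclin partner expressed in most cycling tissues, followed Ccnd2. Its levels in Tcm with IL-15 were 225 and 204 CPM in WT, 145 and 172 CPM in AAB, and 89.0 and 79.3 CPM in BBA, with no overlap between genotypes. BBA was 2.1-fold lower than WT (log2 fold change -1.07 ± 0.10, adjusted p = 6.1e-04) and 1.64-fold lower than AAB (adjusted p = 0.0138). The call against WT held without any 1 library, and the call against AAB was lost without AAB replicate 2 (adjusted p = 0.0783) or BBA replicate 2 (adjusted p = 0.0767).

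In Tcm with IL-7, Cdk4 read 222 and 159 CPM in WT, 111 and 122 CPM in AAB, and 87.4 and 79.6 CPM in BBA. Both deficient groups lay below WT, and BBA was called at -0.95 ± 0.16 (adjusted p = 0.0355). The call held without either WT library and was lost without any 1 of the 4 deficient ones. In the male libraries alone, with 1 BBA library left, the value was -1.08. Without WT replicate 2, AAB was also called (-0.74, adjusted p = 0.00597). In Tnv with IL-15, WT read 119 and 103 CPM, AAB 72.5 and 76.3 CPM, and BBA 55.1 and 58.9 CPM. The genotypes again did not overlap, and the mean of BBA was 51.5% of that of WT. On the scale of the fit BBA was 1.58-fold lower than WT (adjusted p = 0.0202), and with the scaling of the levels it differed by -0.96 (adjusted p = 0.003). The first of these calls was kept only without the WT library that held CD4 lineage transcripts and otherwise lost, with adjusted p from 0.0532 to 0.1.

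In Tem with IL-15 the values of Cdk4 were 123 and 93.1 CPM in WT, 128 and 79.9 CPM in AAB, and 83.4 and 53.3 CPM in BBA. Replicate 2 was the lower library in each genotype, and the difference of BBA, -0.63 ± 0.20, was not called (adjusted p = 0.182) but was called with the replicate block (-0.64, adjusted p = 0.00685). CD4+ cells showed no such gap, with 72.0, 73.0 and 75.9 CPM in WT and 61.7, 80.3 and 67.0 CPM in BBA with IL-7 (log2 fold change -0.06).

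Cdk6, the second D cyclin kinase, showed the largest differences of the 10 genes. WT libraries with cytokine stood far above WT NC libraries, apart from WT Tcm replicate 1 with IL-7, whereas BBA libraries did not exceed 20.1 CPM in any condition. In Tnv it read 15.0 and 13.2 CPM in WT as NC, 134 and 110 CPM with IL-7, and 61.4 and 39.4 CPM with IL-15. In BBA Tnv the values were 11.5 and 20.1 CPM as NC, 19.0 and 12.1 CPM with IL-7, and 6.94 and 9.29 CPM with IL-15. AAB lay between them with IL-7, at 50.6 and 34.0 CPM, and nearer to BBA with IL-15, at 10.1 and 17.9 CPM.

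**Figure D3:**
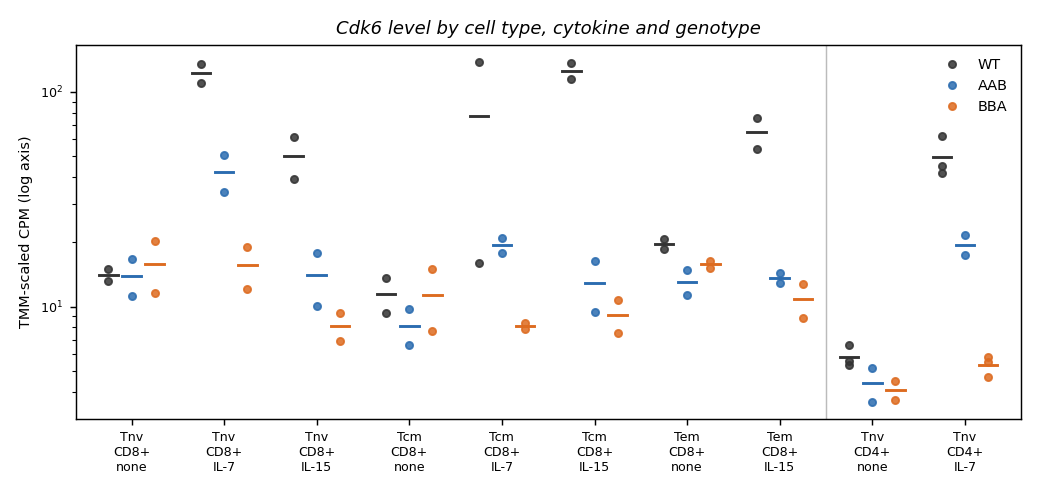
TMM-scaled CPM of Cdk6 in each library (log axis), by cell type and cytokine, with WT in black, AAB in blue and BBA in orange; points are libraries and bars are group means, and conditions marked none are NC. WT points rise under cytokine, to 136 and 114 CPM in Tcm with IL-15, apart from WT Tcm replicate 1 with IL-7 at 16.0 CPM, and BBA points with cytokine stay between 4.72 and 19.0 CPM.

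In Tnv, BBA differed from WT in Cdk6 by -2.94 ± 0.27 with IL-7 (adjusted p = 0.00844) and by -2.34 ± 0.34 with IL-15 (adjusted p = 0.00737). The first call was lost without WT replicate 1 (adjusted p = 0.106) or WT replicate 2 (adjusted p = 0.0575), and the second without BBA replicate 1 (adjusted p = 0.0532). AAB was lower than WT in all libraries but not called, at -1.56 with IL-7 (adjusted p = 0.1) and -1.73 with IL-15 (adjusted p = 0.0667). With the replicate block both were called, at -1.58 (adjusted p = 0.00716) and -1.75 (adjusted p = 0.0431). DESeq2 called both as well (adjusted p = 4.07e-06 and 2.29e-04), and edgeR called the second without the WT library that held CD4 lineage transcripts (-2.01, adjusted p = 0.0463). The step from AAB to BBA with IL-7, -1.39, was likewise called with the block (adjusted p = 0.0117) or by DESeq2 (adjusted p = 1.94e-04), and 0.148% of all genes were called in that comparison without it.

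In Tcm with IL-15, Cdk6 read 136 and 114 CPM in WT, 9.43 and 16.3 CPM in AAB, and 7.56 and 10.8 CPM in BBA. Both deficient groups were far below WT and overlapped each other. The differences from WT were -3.20 ± 0.25 in AAB (adjusted p = 0.00361) and -3.47 ± 0.26 in BBA (adjusted p = 2.55e-04), and both held without any 1 library. BBA and AAB differed by -0.27 ± 0.27. With IL-7 in Tcm, the WT libraries disagreed, at 16.0 and 138 CPM, while AAB read 17.8 and 20.8 CPM and BBA 8.36 and 7.84 CPM. No difference was called (BBA -3.08 ± 0.90, adjusted p = 0.101). Without the divergent WT library, BBA was called at -3.92, AAB at -2.77 and BBA over AAB at -1.15. That fit held 1 WT library and thus no spread of WT.

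In Tem with IL-15, Cdk6 read 75.9 and 54.0 CPM in WT, 14.3 and 12.9 CPM in AAB, and 12.8 and 8.84 CPM in BBA, with no overlap between WT and either deficient group. BBA was 5.81-fold lower than WT (adjusted p = 0.0168) and AAB 4.76-fold lower (adjusted p = 0.0466). Cdk6 was 1 of only 2 genes called for AAB in that condition. Each call was kept only without BBA replicate 2 and lost without any 1 of the other 5 libraries, with adjusted p from 0.0575 to 0.15 for BBA and from 0.0643 to 0.987 for AAB. In CD4+ cells with IL-7, the 3 genotypes were stepped. WT read 44.9, 62.5 and 42.0 CPM, AAB 17.3 and 21.5 CPM, and BBA 5.80, 5.51 and 4.72 CPM. BBA was 9.21-fold lower than WT (log2 fold change -3.20 ± 0.18, adjusted p = 1.84e-05) and 3.57-fold lower than AAB (adjusted p = 0.00205), and both held without any 1 library. AAB was 2.58-fold lower than WT (adjusted p = 0.0155), a call lost without either AAB library (adjusted p = 0.102 and 0.0707) or without WT replicate 1 (adjusted p = 0.0506).

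Cdk2, the kinase of cyclin E and cyclin A, varied little. Its levels lay between 17.2 and 44.1 CPM in all CD8+ libraries and between 43.9 and 58.5 CPM in CD4+ libraries, and no genotype comparison called it. Its largest genotype value was 0.45 ± 0.11 in BBA Tnv as NC, where BBA read 28.5 and 32.0 CPM and WT 20.9 and 23.6 CPM (adjusted p = 0.0735). The groups did not overlap there.

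Among the inhibitors, Cdkn1b, which restrains cyclin E-CDK2 and is abundant in resting T cells, was the only member called higher in a deficient group with the filter used. With IL-15, Tcm libraries read 229 and 246 CPM in WT, 256 and 228 CPM in AAB, and 298 and 289 CPM in BBA, and BBA alone stood above WT. The mean of BBA was 124.0% of that of WT at these levels. On the scale of the fit the difference was 1.5-fold (log2 fold change 0.59 ± 0.11, adjusted p = 0.00516), just past the fold limit, and with the scaling of the levels it was 0.31 (adjusted p = 0.0348) and not called. It was 1.40-fold against AAB and was not called. Without any 1 library other than WT replicate 2 it fell under the limit, with log2 values from 0.50 to 0.58, and filterByExpr, no filter, DESeq2, its size factors or a single fit over all libraries gave 0.36, 0.33, 0.57, 0.57 and 0.53. All BBA libraries lay above all WT libraries at these levels in 4 of 6 conditions with cytokine and below them in 1, Tnv with IL-15. On the scale of the fits they lay above in 6 of 6, so the direction in Tnv with IL-15 (0.13, not called) depends on the scaling. Here too, the share of all genes that separate in this way was not counted. In Tcm with IL-7 the divergent WT library read 198 CPM and the other 306 CPM, against 343 and 327 CPM in BBA and 299 and 337 CPM in AAB. Without WT replicate 2 the rise was called at 1.05 in BBA (adjusted p = 0.00123) and 0.87 in AAB (adjusted p = 0.00317).

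Cdkn1a, the p53 target that encodes p21, was at 0.276 to 7.92 CPM in CD8+ cells, and 9 of 48 libraries had 10 counts or fewer. Its group means were highest in Tem with IL-15 in each genotype, with 3.82 and 5.01 CPM in WT, 4.73 and 4.93 CPM in AAB, and 5.70 and 7.92 CPM in BBA. In Tnv with IL-7 it read 1.43 and 2.93 CPM in WT, 6.51 and 1.76 CPM in AAB, and 0.276 and 0.842 CPM in BBA. There BBA lay below WT (-1.94) but was not called, and AAB replicates differed widely. Without a filter it was called against WT (-1.96, adjusted p = 0.0255) and against AAB (-2.84, adjusted p = 2.72e-04). In the other conditions Cdkn1a did not pass the filter, and its direction varied. BBA libraries all lay below WT in 2 of 6 cytokine conditions, all above in 2, and overlapped in 2. As NC, they all lay above in 3 of 4. AAB libraries all lay above WT in 1 of 6 and 1 of 4, and otherwise overlapped. For Tnv under IL-15, the mean of BBA was 253% and that of AAB 289% of the WT mean, with WT libraries at 0.434 and 2.38 CPM. With filterByExpr and without the WT library that held CD4 lineage transcripts, log2 values were 3.01 in BBA and 3.19 in AAB. These rest on the 1 WT library left, the lower one. The separation of groups was not counted over all genes.

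Cdkn2c, an INK4 inhibitor that rises with cycling in lymphocytes, differed by cell state more than by genotype. It read between 1.31 and 2.09 CPM in Tnv as NC and between 7.07 and 13.6 CPM in Tem as NC over the 3 genotypes, with no overlap. No genotype comparison called it in the 5 conditions where it was tested, and its largest difference from WT was -0.44, in AAB Tem as NC. Cdkn2d, the other INK4 member, read between 1.10 and 6.78 CPM in CD8+ cells. It passed the filter of the genotype comparisons only in NC cells, with no call. With IL-15, Tcm libraries read 1.97 and 1.66 CPM in WT and 3.78 and 3.78 CPM in BBA, a separation that was called with filterByExpr (1.11, adjusted p = 0.0267) or without a filter (1.08, adjusted p = 0.0203).

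**Figure D4:**
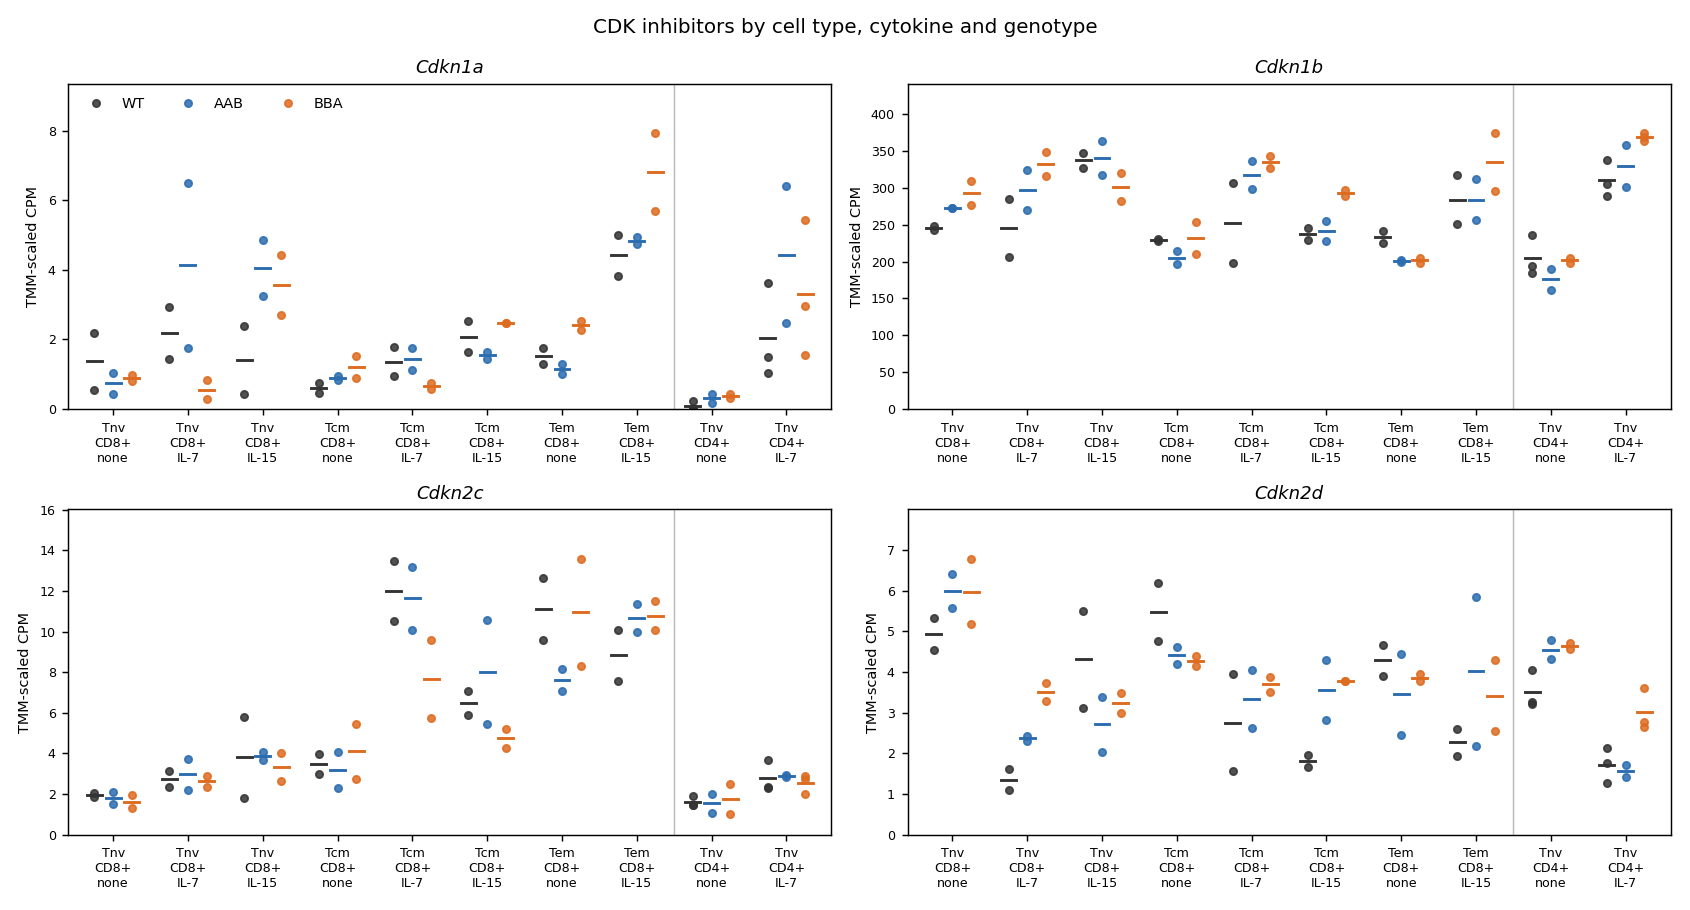
TMM-scaled CPM (vertical axes from 0) of the inhibitors Cdkn1a, Cdkn1b, Cdkn2c and Cdkn2d in each library, by cell type and cytokine, with WT in black, AAB in blue and BBA in orange; points are libraries and bars are group means. Conditions marked none are NC. Cdkn1b lies between 162 and 374 CPM, while no library of the other 3 genes exceeds 13.6 CPM.

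Cytokine effects in WT cells were tested in each cell state. Cdk6 was the member that rose most often. In Tnv it was 9.08-fold higher with IL-7 than as NC (log2 fold change 3.18 ± 0.22, adjusted p = 3.37e-04) and 3.67-fold higher with IL-15 (adjusted p = 0.00559). In Tem it was 3.73-fold higher with IL-15 (18.5 to 20.5 CPM as NC, adjusted p = 0.0125), and in CD4+ cells 8.54-fold higher with IL-7 (5.32, 5.55 and 6.61 CPM as NC, adjusted p = 6.06e-06). The IL-15 calls were lost without WT NC replicate 2 in Tnv (adjusted p = 0.0703) and without WT NC replicate 1 in Tem (adjusted p = 0.0628). In Tcm, Cdk6 read 9.34 and 13.6 CPM as NC and 136 and 114 CPM with IL-15, yet no member was called with IL-15, where 0% of the 10768 genes tested passed in edgeR and 1311 had an unadjusted p under 0.05, nor with IL-7 (0.381%). Without the divergent WT library with IL-7, whose spread enters the same fit, Cdk6 was called with IL-15 (3.34, adjusted p = 9.07e-04) and with IL-7 (3.60, adjusted p = 4.43e-04), and Cdkn2c was called with IL-7 (2.02, adjusted p = 0.012). It was called with IL-15 also without the other WT library with IL-7 (3.35, adjusted p = 0.00108). DESeq2 called 337 genes for IL-15 in Tcm, and a single edgeR fit over all libraries called 587.

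Other members changed with cytokine in WT Tnv and CD4+ cells. In Tnv with IL-7, where 20.3% of all genes were called, Ccnd3 fell from 285 and 264 CPM to 133 and 149 CPM (log2 fold change -0.90 ± 0.09, adjusted p = 0.00123). Cdk2 rose from 20.9 and 23.6 CPM to 32.8 and 40.2 CPM (1.71-fold, adjusted p = 0.0221), a call lost without any 1 of these 4 libraries, with adjusted p from 0.0534 to 0.128. These IL-7 libraries were male and the NC libraries female, so cytokine and sex cannot be told apart. With IL-15 in Tnv (6.15% of all genes) and in Tem (1.64%), Cdk6 was the only member called. Without WT Tnv replicate 1 with IL-15, Ccnd2 (-0.63, adjusted p = 0.0174) and Cdk2 (0.68, adjusted p = 0.0195) were also called in Tnv.

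In CD4+ cells with IL-7, 16.8% of all genes and 4 members were called. Cdkn1a rose from 0, 0.222 and 0 CPM to 1.03, 1.5 and 3.62 CPM. Only 2 counts were seen in the 3 NC libraries against 97 with IL-7, a ratio of 30.2 after scaling by library totals (exact 95% interval 8.14 to 253.0, counting error only). Cdkn1b rose from 185, 195 and 236 CPM to 290, 305 and 338 CPM (1.52-fold, adjusted p = 0.0025), and Cdkn2d fell from 3.27, 3.22 and 4.04 CPM to 1.76, 1.27 and 2.13 CPM (2.12-fold, adjusted p = 0.027). No NC library overlapped an IL-7 library in any of these 3 genes. Such separation was not counted over all genes, so it only describes these called members. The Cdkn1b call was lost without WT IL-7 replicate 3 or NC replicate 1 or 2, as the fold dropped under the limit (log2 0.53 to 0.57). The Cdkn2d call was lost without IL-7 replicate 1 or 2 or NC replicate 1 or 2, with adjusted p from 0.0525 to 0.108.

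Whether the genotype effect itself differed between cytokine and NC was tested as an interaction. For BBA, Cdk6 was called in 5 of the 6 settings. The effect with cytokine minus the effect without was -3.12 ± 0.42 in Tnv with IL-7 (2.46% of all genes called), -2.53 ± 0.50 in Tnv with IL-15 (2.54%), -3.54 ± 0.51 in Tcm with IL-15 (7.73%), -2.35 ± 0.23 in Tem with IL-15 (0.00954%) and -2.66 ± 0.29 in CD4+ cells with IL-7 (1.11%). In Tem with IL-15, Cdk6 was the single gene of 10485 called. In Tcm with IL-7 (0.0865%), Cdk6 was not called at -3.12 ± 1.08, and was called without the divergent WT library (-3.97, adjusted p = 0.00766), while Ccnd3 (-0.99, adjusted p = 0.0151) and Cdkn1b (0.93, adjusted p = 0.0211) were called without WT replicate 2. In Tcm with IL-15, Ccnd2 (-0.90 ± 0.19, adjusted p = 0.0187), Ccnd3 (-0.63 ± 0.14, adjusted p = 0.023) and Cdk4 (-0.81 ± 0.19, adjusted p = 0.0313) were called as well, and with the replicate block Cdk2 was too (-0.65, adjusted p = 0.0198). The block also added Ccnd2 in Tem with IL-15 (-0.93, adjusted p = 0.0185). No interaction was called for the inhibitors with all libraries in the fit.

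These interaction calls differed in how far they depended on single libraries. Cdk6 held without any 1 of the libraries in Tcm with IL-15 and in CD4+ cells. In Tnv with IL-7 it was lost without WT IL-7 replicate 1 or either WT NC library (adjusted p from 0.0502 to 0.0592). In Tnv with IL-15 it was lost without replicate 1 of BBA or WT with IL-15, BBA NC replicate 2 or either WT NC library (0.061 to 0.134). In Tem it was kept only without AAB NC replicate 2 or BBA NC replicate 1 (otherwise 0.0537 to 0.26). For Tcm with IL-15, Ccnd2 and Ccnd3 were lost without any WT or BBA library with IL-15 or BBA NC replicate 2 (0.0568 to 0.0929 and 0.0608 to 0.114). Cdk4 was lost without any 1 of the 6 libraries with IL-15, BBA NC replicate 1 or WT NC replicate 2 (0.0521 to 0.135).

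For AAB, the same interactions gave 0 calls in 43 member tests, with 7 at an unadjusted p under 0.05, and 3 calls by DESeq2. The share of all genes called was 0.293% in Tnv with IL-7, 0.351% in Tnv with IL-15, 0.00961% in Tcm with IL-7, 0.126% in Tcm with IL-15, 0% in Tem with IL-15 and 0.0192% in CD4+ cells. With the replicate block, Cdk6 was called in Tnv with IL-7 (-1.52, adjusted p = 0.0438), Tcm with IL-15 (-2.82, adjusted p = 0.00222) and Tem with IL-15 (-1.80, adjusted p = 0.0412). Without WT replicate 2 in Tcm with IL-7, Ccnd3 (-1.08, adjusted p = 0.00952) and Cdkn1b (0.97, adjusted p = 0.0178) were called there. AAB and BBA share their WT libraries in all these fits.

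The direct contrast of BBA over AAB called Ccnd2, Ccnd3 and Cdk4 in Tcm with IL-15 (5.85% of all genes) and Cdk6 in CD4+ cells with IL-7 (1.56%). No member was called by edgeR in Tnv with IL-7 (0.148%) or IL-15 (0.0706%), Tcm with IL-7 (0.0891%) or Tem with IL-15 (0.00982%). With the replicate block or by DESeq2, Cdk6 was called in Tnv with IL-7 and Ccnd2 in Tem with IL-15, as given above. In Tcm with IL-15, Ccnd2, Ccnd3 and Cdk4 thus separated the 2 deficient genotypes while Cdk6 did not (-0.27 ± 0.27). There Cdk6 read 9.43 and 16.3 CPM in AAB and 7.56 and 10.8 CPM in BBA, near WT Tcm as NC (9.34 and 13.6 CPM). Whether this limited a further fall was not tested. In CD4+ cells Cdk6 separated the 2 genotypes while Cdk4 read 76.2 and 75.2 CPM in AAB and 61.7 to 80.3 CPM in BBA.

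The size of the BBA effect with IL-15 was compared between cell states. It gave 0 member calls in 14 tests, with 6 at an unadjusted p under 0.05, for Tcm against Tnv (0.194% of all genes) and Tem against Tcm (0.00957%), and DESeq2 called 1, Ccnd3 in Tcm against Tnv (-0.64, adjusted p = 0.0213). The Cdk6 effect was larger in Tcm than in Tnv by -1.15 ± 0.49 (adjusted p = 0.322), which was not called. The stronger calls in Tcm are therefore not shown to differ from those in Tnv or Tem.

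In WT cells themselves, levels differed by state. As NC, Tcm over Tnv called no member (2.78% of all genes), and Tem over Tcm (1.95%) called Cdkn2c, which rose from 3.98 and 2.98 CPM to 12.6 and 9.59 CPM (3.35-fold, adjusted p = 0.0302). That call was lost without any 1 of the 6 WT NC libraries, with adjusted p from 0.0596 to 0.25. Cdk6 was 1.73-fold higher in Tem than Tcm, which was called with the replicate block (0.77, adjusted p = 0.0138) or without WT Tcm replicate 2 (1.16, adjusted p = 0.0348). With IL-15, Tcm stood above Tnv (7.6% of all genes) in Ccnd3 (1.66-fold, adjusted p = 0.0138), Cdk4 (1.79-fold, adjusted p = 0.00909) and Cdk6 (2.29-fold, adjusted p = 0.0208), and under it in Cdkn1b (1.54-fold, adjusted p = 0.0195). Tem lay under Tcm (2.03%) in Cdk4 (1.64-fold, adjusted p = 0.0306), a difference of -0.99 with the scaling of the levels (adjusted p = 0.0215), which shifts this comparison by -0.29.

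These IL-15 state calls leaned on few libraries. The 4 calls of Tcm over Tnv were lost without either WT Tcm library (adjusted p from 0.0637 to 0.161), and that of Cdkn1b also without the WT Tnv library that held CD4 lineage transcripts (0.0581). Without WT Tnv replicate 1, Ccnd2 was called too (0.97, adjusted p = 0.0312). The Cdk4 call of Tem over Tcm was lost without either WT Tcm library or WT Tem replicate 2 (0.185 to 0.23), and Cdk6 was called there without either WT Tnv library (-0.67, adjusted p = 0.0332, and -0.66, adjusted p = 0.0306).

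Ranked over the 8 WT CD8+ conditions by mean CPM, Ccnd2, Ccnd3, Cdk4 and Cdk6 all stood highest in Tcm with IL-15. Ccnd2 ran from a mean of 1009 CPM there to 568 CPM in Tnv with IL-15, and only the top condition was apart from its neighbour. Cdk6 ran from 125 CPM to 11.4 CPM in Tcm as NC, a 10.9-fold span. In that order, Tcm with IL-15, Tnv with IL-7, Tcm with IL-7, Tem with IL-15 and Tnv with IL-15 formed the upper part, in which each of the first 4 overlapped the next. Tnv with IL-15 (39.4 to 61.4 CPM) lay apart from Tem as NC (18.5 to 20.5 CPM), and Tem as NC from Tnv as NC, which overlapped Tcm as NC. Tcm with IL-7 reached across this gap, since its divergent library, at 16.0 CPM, lay below Tem as NC. Cdkn1b spanned 1.47-fold, with only Tnv with IL-15 (337 CPM) apart. Cdkn2d was highest in Tcm as NC (5.47 CPM) and lowest in Tnv with IL-7 (1.35 CPM).

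Other components and regulators of the RB-E2F step were followed as a list of 22 genes, and S phase and mitotic genes as a list of 13. In BBA Tcm with IL-15, where 23.5% of all genes were called, 19 of the 22 were tested, with 3 higher and 5 lower than in WT. The lower genes were led by E2f1 (-2.27), the activating E2F, and Cks1b (-1.80), a CDK adaptor, and the higher genes by Tfdp2 (0.78), an E2F partner, and Cdk7 (0.77), a CDK-activating kinase. Of the second list, 10 were tested and 7 were lower, all 6 of Mcm2 to Mcm7, which form the replicative helicase, and Pcna. The list's median was -1.19, against 0.02 over all genes. With the scaling of the levels in the fit, none of the first list was higher and 8 were lower, and all 10 of the second were lower. Mki67 read 48.2 and 44.3 CPM in WT and 29.4 and 16.5 CPM in BBA and was not called. In AAB (4.29% of all genes), E2f2 was higher (0.87) and Mcm7 lower (-0.70), with no other call in either list. BBA over AAB (5.85%) gave 2 lower genes of the first list, E2f1 (-1.65) and Tfdp1 (-0.85), and 6 of the second.

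B cell marker transcripts moved with this comparison. Their sum over 6 markers was 110 and 195 CPM in WT Tcm with IL-15, 76.9 and 218 CPM in AAB, and 196 and 393 CPM in BBA, with no marker at 0. In Tcm with IL-7 it was 47.9 and 19.4 CPM in WT and 254 and 141 CPM in BBA. Their part in the results was not tested. In CD4+ cells with IL-7, the sum was 6.41 to 9.84 CPM in WT and 13.2 to 56.8 CPM in BBA. In Tnv with IL-15 it was 48.2 and 136 CPM in WT and 87.9 and 203 CPM in BBA, and in Tem with IL-15 43.1 and 102 CPM and 61.8 and 162 CPM. Of 4 erythroid markers, 3 were at 0 in every library.

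In the other conditions, fewer genes of these lists were called. For BBA (2.69% of all genes in Tnv with IL-7, 9.31% in Tnv with IL-15, 3.09% in Tcm with IL-7 and 5.5% in CD4+ cells), E2f2 (2.06) and Rbl1 (0.93), an RB relative, rose in Tnv with IL-7. Tfdp1, an E2F partner, was lower in Tnv with IL-15 (-0.72), and without the WT library that held CD4 lineage transcripts E2f2 was called higher in its place. In Tcm with IL-7 it was also lower (-0.996), and Rbl1 was higher (0.98). Both stayed called without the divergent WT library, and Mcm5 was then lower as well. In CD4+ cells with IL-7, Ccne1 (1.17), the cyclin of Cdk2, Rb1 (0.70) and Rbl1 were higher. No S phase or mitotic gene was called in these 4 conditions, nor any gene of either list in Tem with IL-15. With the scaling of the levels, 3 S phase or mitotic genes were lower in Tnv under IL-15 and 4 in Tcm under IL-7. In WT cells with IL-15, Tcm over Tnv (7.6% of all genes) gave 5 higher of the first list, led by E2f1 (2.63) and Cks1b (1.73), and 7 of the second, and without the WT Tnv library that held CD4 lineage transcripts 4 and 9.

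In the transduced AAB cells, Stat5a read 60.7 and 60.9 CPM with S5a and 8.35 and 3.17 CPM with the control vector. Stat5b was higher as well, at 150 and 132 CPM with S5a against 61.4 and 72.6 CPM, so Stat5a was not the only STAT5 transcript to differ. Of all genes, 6.63% were called. Ccnd2 rose from 486 and 436 CPM to 820 and 695 CPM (log2 fold change 0.69 ± 0.14, adjusted p = 0.0365). Cdkn1a rose from 3.14 and 1.95 CPM to 10.9 and 7.93 CPM (1.86 ± 0.36, adjusted p = 0.0314). In both genes the groups did not overlap, but the Ccnd2 call was lost without either control library or S5a replicate 1 (adjusted p from 0.0511 to 0.192), and the Cdkn1a call without either S5a library (0.24 and 0.0584). Ccnd3 read 423 and 495 CPM with the control and 651 and 604 CPM with S5a, and was not called (0.42 ± 0.14, adjusted p = 0.14). Cdk6 did not follow, with 12.9 and 12.6 CPM in the control and 12.3 and 12.6 CPM with S5a (-0.06 ± 0.18). Cdk4 read 111 and 115 CPM against 104 and 102 CPM.

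Of the inhibitors in these activated cells, only Cdkn2c lay fully above its range in the sorted CD8+ cells, while Cdkn1a, Cdkn1b and Cdkn2d overlapped theirs. Cdkn2c read 23.9 to 34.2 CPM, while no library of the sorted CD8+ cells exceeded 13.6 CPM, and Mki67, a marker of cycling cells, lay between 166 and 247 CPM. The tables were scaled separately, so such levels are set side by side without a test. Of the RB-E2F list, E2f2 rose (0.69) and E2f3 fell (-1.17) with S5a, and no S phase or mitotic gene was called. Summed NK cell markers lay between 2337 and 2664 CPM, and effector markers between 2160 and 8184 CPM, highest in an S5a library. CD8 lineage markers summed to 404 to 442 CPM, against 1533 to 3608 CPM in the sorted CD8+ libraries. T cell markers summed to 351 to 465 CPM, against 765 to 1727 CPM, and CD4 lineage markers to 138 to 174 CPM. Myeloid markers summed to 663 to 1627 CPM, against 5.73 to 233 CPM in the sorted CD8+ libraries. Their part in these results was not tested.

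**Figure D5:**
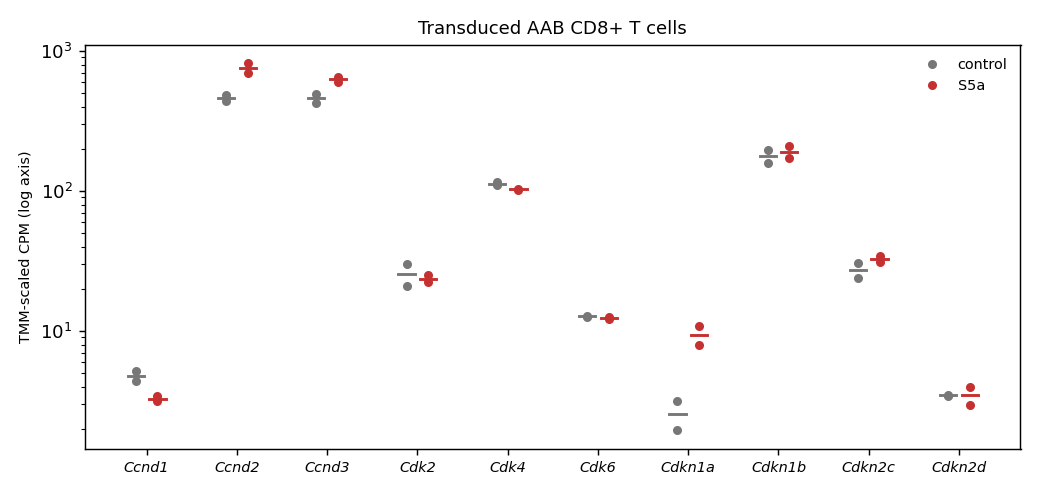
TMM-scaled CPM (log axis) of the 10 genes in transduced AAB CD8+ T cells, with the control vector in gray and S5a in red; points are the 2 libraries of each group and bars are means. Ccnd2 and Cdkn1a are higher with S5a, at 820 and 695 against 486 and 436 CPM for Ccnd2, whereas the 4 Cdk6 points lie together near 12.6 CPM.

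Profiles over the 24 CD8+ group means were compared as a description. Each mean rests on 2 libraries. Among genes with a mean of at least 10 CPM, Ccnd2 was most like Bysl (Pearson r = 0.968 on the log2 scale) and Smarca4 (0.952), and Cdk4 most like Ranbp1 and Snrpa (both 0.967). Cdk6 was most like Fam133b (0.912) and Mbnl3 (0.911), and Ccnd3 like Slc25a12 and Fkbp8 (both 0.936). Cdkn1b was most like Abtb1 (0.895) and Zfp949 (0.888), and Cdkn2c like Hmgb2 (0.93) and Incenp (0.916). For Cdk2 these were Hcfc2 (0.89) and Usp37 (0.862), and for Cdkn2d Sh3kbp1 (0.856) and Pitpnm1 (0.845). For Ccnd1 they were Mmachc (0.829) and Dclre1c (0.815), and for Cdkn1a Otud7b (0.829) and Gm10845 (0.777). Within the 10 genes, Ccnd2 and Cdk4 were the most alike (r = 0.922), then Ccnd3 and Cdk4 (0.817). Cdk6 and Cdkn2d ran opposite (-0.69). Bysl overlaps Ccnd3 in the genome, as Tspan31 does Cdk4, Pmel does Cdk2, LTO1 does Ccnd1, AC167363.2 does Cdkn1a and antisense genes do Ccnd2 and Cdk6, and whether counting used strand is not given in the sources used here, so reads of such partners may not be separated.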

How the data were processed

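RNA-seq (poly(A)+, single-end) measured gene counts in 69 libraries, of which 67 were assigned to 32 groups from their labels. The authors deposited raw counts per gene, with no normalization, made by TopHat2 and HTSeq per the labels. The labels name build mm9 and the study's methods mm10. The annotation used for counting is not given in the sources used here. In the retrovirus table, summary rows that name no gene held 67% to 68.4% of the deposited counts and were left out. No column of the tables was left unmapped (0). Gene counts per library are given with the results, and intervals cover counting error only.

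The counts were scaled by TMM and tested with edgeR 4.0.16 (quasi-likelihood, R 4.3.3) in 25 fits and 51 comparisons, after a filter that maximizes the Jaccard similarity of replicates, adapted from HTSFilter, with Benjamini-Hochberg adjustment over all genes tested. A gene was called at more than 1.5-fold and an adjusted p under 0.05. Genotypes were compared within each cell type and cytokine, cytokine with NC and states with each other in WT, S5a with control, and interactions were fitted over the groups involved. DESeq2 1.42.0, other filters and size factors, the scaling of the printed levels (TMM over all genes and libraries of a table), a single fit, a replicate block, a 2-fold limit and leaving out each library were alternatives. The main edgeR and DESeq2 procedures were tested on simulated data for some of the 25 fits, on the first comparison of each. The other steps were not. The 10 genes and the lists were chosen with earlier results of these data known. All 10 genes are named throughout. From the RB-E2F list up to 2 called genes in each direction are named, from the proliferation list counts, the median and Mki67, and further genes in the text were named after their values were seen. For likeness, log2(CPM + 1) was used.

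Libraries with the same replicate number deviated together in every genotype comparison except Tcm with IL-7 (r from -0.0502 to 0.275), with pairwise r from 0.104 to 0.773 elsewhere, so the number was taken as a pairing from the data. This also held for the WT Tem response (0.43) and the WT NC states (0.538 to 0.685). Replicates differed by more than sampling noise (chi-square over degrees of freedom 5.75 to 101). The study counts its RNA-seq replicates as mice of a group, assayed over several trials. The labels name no animal for a library, and p-values measure the spread between these libraries. Overlapping genes may share reads. Gene positions are from GRCm38, and promoter windows from RefSeq.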

Additional observations from a re-analysis of the deposited data

Results flagged for a closer look

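For 8 results, the BBA effect differed between cells with cytokine and NC cells by an interaction test in edgeR. For Cdk6 the difference of effects was -3.12 ± 0.42 (SE, log2 scale, adjusted p = 0.0102) in Tnv with IL-7, -2.53 ± 0.50 (adjusted p = 0.0311) in Tnv with IL-15, and -3.54 ± 0.51 (adjusted p = 0.00393) in Tcm with IL-15. It was -2.35 ± 0.23 (adjusted p = 0.0221) in Tem with IL-15 and -2.66 ± 0.29 (adjusted p = 2.78e-04) in CD4+ cells with IL-7. In Tcm with IL-15 it was -0.90 ± 0.19 (adjusted p = 0.0187) for Ccnd2, -0.63 ± 0.14 (adjusted p = 0.023) for Ccnd3 and -0.81 ± 0.19 (adjusted p = 0.0313) for Cdk4. The Tnv libraries with IL-7 were male and the NC libraries female in each genotype, so an effect of cytokine and an effect of sex on this difference cannot be told apart there.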

How the results depend on the processing

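Of 1198 values of single genes under alternatives, 950 kept their direction and their side of the threshold, 164 kept the direction but lost the call, 84 kept it and gained a call, and 0 changed direction. Of 450 member counts, 402 stayed within 1.5 times and 48 did not. With a 2-fold limit, member calls were 8 in place of 13 for BBA and 1 in place of 3 for BBA over AAB in CD8+ cells, 1 in place of 2 for BBA in CD4+ cells, 3 in place of 5 for the WT CD8+ response, 5 in place of 8 for BBA interactions, 2 in place of 6 for WT states and 1 in place of 2 for S5a. Without a filter, AAB gave 6 in place of 2, BBA over AAB 6 in place of 3, the WT response 10 in place of 5 and AAB interactions 3 in place of 0. DESeq2 gave 4, 5 and 3 for AAB, BBA over AAB and AAB interactions, and 1 in place of 0 between states. A single fit over all libraries gave 4 for AAB and 5 for BBA over AAB.

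With the replicate block, member calls were 4 for AAB, 5 for BBA over AAB and 3 for AAB interactions. Where the numbers did not pair the libraries, the block removed Ccnd2 of BBA in Tcm with IL-7 (adjusted p = 0.0539) and added, with IL-15, Ccnd2 in WT Tcm over Tnv (0.73, adjusted p = 0.018) and Cdk6 in WT Tem over Tcm (-0.67, adjusted p = 0.0416). It changed no other call than these and those given with the results. For S5a, no paired analysis was possible because the titles do not number every library.

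The scaling of the printed levels in the fits, chosen after seeing the data, kept every member count within 1.5 times. It ended the calls of Cdkn1b (0.31) in BBA Tcm with IL-15, Ccnd2 in BBA (-1.33, adjusted p = 0.119) and Cdk6 in AAB (-2.25, adjusted p = 0.061) in Tem with IL-15, the Cdk6 interaction of BBA there (-2.27, adjusted p = 0.374) and Cdkn1b in WT Tcm over Tnv with IL-15 (-0.51, adjusted p = 0.21). It added Cdk6 of AAB in Tnv with IL-15 (-1.85, adjusted p = 0.00477), of BBA in Tcm with IL-7 (-3.26, adjusted p = 0.0495) and of WT Tem over Tcm with IL-15 (-0.95, adjusted p = 0.0398). Among BBA over WT, filterByExpr gave 3255 genes higher and 2149 lower in Tcm with IL-15. For BBA over AAB in Tcm with IL-15, 269 genes were higher and 313 lower as reported, and 208 and 921 with the scaling of the levels.

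Leaving out 1 library at a time gave 10 to 15 member calls for BBA, 1 to 5 for AAB and 1 to 4 for BBA over AAB in CD8+ cells. In CD4+ cells it gave 2 for BBA, 0 to 1 for AAB, 1 for BBA over AAB and 2 to 3 for the IL-7 response. It gave 3 to 9 for the WT CD8+ response, 5 to 10 for BBA interactions, 0 to 2 for AAB interactions, 0 between states, 1 to 8 for WT states and 0 to 1 for S5a. Male libraries alone in Tcm with IL-7, chosen after seeing the data, lost Ccnd2 and Cdk4. This fit kept 1 library of each deficient genotype, so sex and group size cannot be told apart in that loss. The cause of these changes was not tested.

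Counts over all genes moved more. For BBA over WT in Tcm with IL-15 they were 2334 as reported, 5404 with filterByExpr and 6508 without a filter. In Tnv with IL-15 they were 923, 3730 and 4936, and in Tem with IL-15 179, 21 and 565, with 805 by DESeq2 and 1455 with the block. In Tnv with IL-7 they were 273 as reported and 607 by DESeq2, and in Tcm with IL-7 312 and 1286. Groups of 2 libraries and counts of 12 to 75 for Ccnd1 limit what could be called.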

Other observations

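For 2 CD4+ libraries, an AAB and a BBA library, the title names no cytokine while the treatment field names IL-7, and they entered no comparison. In the AAB library Cdk6 read 7.86 CPM, Ccnd2 586 CPM, Cdkn1a 0.0763 CPM, Cdkn1b 195 CPM and Cdkn2d 3.58 CPM. In the BBA library Cdk6 read 4.75 CPM, Ccnd2 431 CPM, Cdkn1b 190 CPM and Cdkn2d 6.79 CPM, and Cdkn1a was at 0 counts.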
